A study of Mus musculus with 12 samples.

Results

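The peaks described here join miR-124-3p, a mature microRNA (miRNA) best known from neurons, to the protein-coding stretch of a messenger RNA. They were chosen by name and annotation alone: every deposited peak whose small RNA is miR-124-3p and whose annotated feature is coding sequence (CDS). There were 11471 of them among 250567 peaks in all, 10960 in the largest list, 367 and 144 in the next lists and 0 among the 10 peaks of the control list.

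The peaks come from 12 libraries of adult forebrain of C57BL/6 mice, made by ligating a small RNA to the RNA it is bound to inside the Argonaute 2 (Ago2) complex, which gives chimeric reads that hold the 2 RNAs. Anti-Ago2 antibody was used on 7 libraries, which the authors pooled as replicates 1 to 4 (reps 1-4) and replicates 5 to 7 (reps 5-7). Anti-myc antibody was used on 3 libraries to take up tagged Ago2 from excitatory neurons (the excitatory list), and an immunoglobulin G1 (IgG) antibody on 2 libraries as the negative control. The labels describe a cross of Camk2a-Cre/ERT2 mice, in which Cre acts in excitatory neurons after tamoxifen, with mice of the Gt(ROSA)26Sortm1 allele (Zjh/J, on B6.Cg), which carries the conditional tagged Ago2 gene as CAG-GFP/Eif2c2. Mice got 2 mg of tamoxifen on each of 5 days, and forebrains were taken 14 to 21 days after the last dose, when the mice were 10 to 12 weeks old. The labels give this text for all samples alike and do not say whether the mice used for anti-Ago2 and IgG carried the tag too. Peaks were called over pooled libraries, so each list is a single observation with no spread between replicates. Tests below compare lists, with counting error only. Reads were amplified by PCR, and intervals (Wilson, 95%) do not cover amplification. The lists of reps 5-7 and excitatory neurons name the same 3 library numbers, whose meaning is not stated, and reps 1-4 shares none with either. All positions are on mm10.

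miRNAs guide Ago proteins to messenger RNAs by base pairing, mainly through the seed near the 5′ end of the miRNA, and pairing in the 3′ untranslated region (3′ UTR) is the best studied way in which they lower protein output. Coding sequence is also bound by Ago, where a translating ribosome passes over the bound site. miR-124 is abundant in neurons, where it is known for repressing genes of non-neuronal cells such as the splicing regulator Ptbp1.

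Sequence could be read for 8 coding peaks of reps 1-4, those that lie in the RefSeq windows around gene start sites (assembly GRCm38.p6). Of these, 3 are shown as examples of letters set beside values. They do not stand for the 8, whose motif counts are given below. Capitals mark the peak itself, and lower case the flanking bases of a 30-base window, 5′ to 3′ on the strand of the peak.
Lamp2: tgagggATCACGATGTGCCTCTCTccggtt
Uqcc2: gctctccgcTACCGGCGTTTCCTTAAGCTc
Ppp2r2c: cggctctgtgacATGCGGgcagctgccttg

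The Lamp2 peak (chrX:38456292-38456309, minus strand) had a score of 16, and Lamp2 encodes a lysosomal membrane protein. The Uqcc2 peak (chr17:27133843-27133862, minus strand) scored 10, in a gene for an assembly factor of mitochondrial complex III. The Ppp2r2c peak (chr5:36940225-36940230, plus strand) scored 8. Ppp2r2c encodes a regulatory subunit of protein phosphatase 2A. The score is a whole number per peak made by the authors. No source used here defines it, and its lowest value, 3, equals the minimum number of reads set for a peak.

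The letters complementary to the miR-124 seed were searched on the strand of the peak, in the peak with 25 bases on each side. The motif GTGCCTT was in 0 of the 8 readable coding peaks, its part TGCCTT in 1 (Ppp2r2c) and its part GTGCCT in 1 (Lamp2). Both shorter motifs lie within GTGCCTT, so that a match to it counts under all 3. In the same windows GTGCCTT was in 0 of 44 readable coding peaks of other small RNAs, in 8 of 66 miR-124-3p peaks of any region and in 0 of 163 peaks of other small RNAs of any region. Of 32851 stretches of 70 bases, 1 from each window, 0.426% held GTGCCTT, 2.54% held TGCCTT and 2.02% held GTGCCT. On the opposite strand of the 8 coding peaks, TGCCTT occurred in 1 and the others in 0. These counts describe 8 peaks near annotated start sites and were chosen after the data were seen. The start site is not always that of the gene named: for Lamp2 and Ppp2r2c it is that of another locus.

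In reps 1-4, the 10960 coding peaks lay on 4646 genes. A single coding peak was found on 2400 of these genes (51.7%), at least 5 on 498, at least 10 on 102 and at least 20 on 17. The 367 coding peaks of reps 5-7 lay on 309 genes and the 144 of the excitatory list on 128 genes. A single peak was found on 86.4% and 90.6% of those genes. Coding peaks were 15.2% of all miR-124-3p peaks in reps 1-4, 36.1% in reps 5-7 and 50.2% in the excitatory list, and 19.7%, 32.5% and 41.0% of all small RNAs' coding peaks. None overlapped an IgG peak, but the IgG list holds 10 peaks, so few overlaps were possible. For the excitatory list, 0 of 144 allows a share of up to 2.08% by counting error, which is no limit on background.

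Scores were low for most coding peaks. The median was 5 in reps 1-4 (quartiles 4 and 10, highest 830), 4 in reps 5-7 (3 and 6, highest 39) and 4 in the excitatory list (3 and 5, highest 55). miR-124-3p peaks in 3′ UTRs had the same medians, with higher tops of 3591 and 90 in the forebrain lists and a lower one of 22 in the excitatory list. Coding peaks had a median width of 18, 21 and 20 bases in reps 1-4, reps 5-7 and the excitatory list. In reps 1-4 the peaks with the highest scores were the narrowest: the median width was 21 bases at a score of 3, 18 at scores of 6 to 10 and 9 above a score of 100. Along the annotated coding segment, cut into 5 equal parts, the first part held 17.7% of the peaks in reps 1-4, the middle one 21.4% and the last 19.4%. A peak that ran past the edge of its segment was rare, at 2.69%, 2.45% and 1.39% of coding peaks in the 3 lists.

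Among miR-124-3p peaks on messenger RNA (CDS and both UTRs), the coding share differed between the lists. It was 49.9% in reps 1-4 (10960 of 21946, interval 49.3 to 50.6), 45.1% in reps 5-7 (367 of 813, 41.8 to 48.6) and 59.5% in the excitatory list (144 of 242, 53.2 to 65.5). By a two-sided Fisher's exact test, with p adjusted over the 3 pairs of lists (Benjamini-Hochberg), the excitatory share was 14.4 percentage points above that of reps 5-7 (exact adjusted p = 0.000298) and 9.56 points above that of reps 1-4 (exact adjusted p = 0.00532). The share of reps 5-7 minus that of reps 1-4 was -4.80 points (exact adjusted p = 0.00738). The difference between the excitatory list and reps 1-4 missed the threshold when only the highest-scoring peaks of reps 1-4 were kept, as many as the excitatory list holds (2.98 points, exact adjusted p = 0.621) or when peaks under the median score were left out (8.86 points, exact adjusted p = 0.0621). Without peaks under the median score the forebrain lists also differed by less than the threshold (exact adjusted p = 0.1245), and over all miR-124-3p peaks, introns included, reps 5-7 was 20.9 points above reps 1-4.

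**Figure D1:**
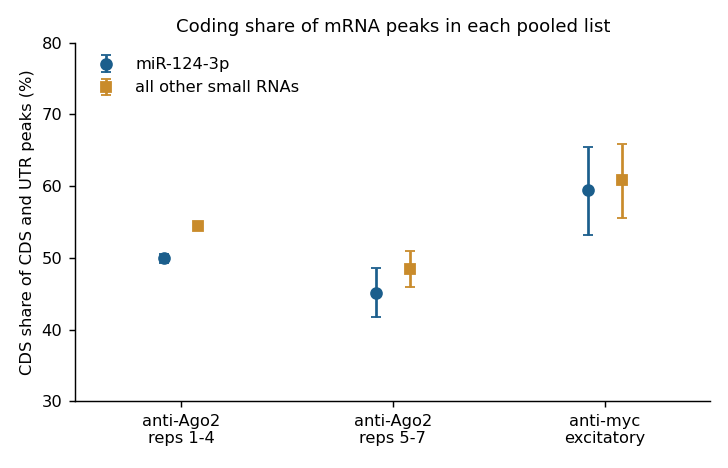
Share of coding peaks among CDS and UTR peaks (percent, axis from 30 to 80) in each pooled list, for miR-124-3p (circles) and for all other small RNAs together (squares); bars are 95% Wilson intervals. The excitatory list has the highest share for both, at 59.5% and 60.9%.

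The other small RNAs differed between the lists in the same directions. Their coding shares were 54.5%, 48.5% and 60.9% in reps 1-4, reps 5-7 and the excitatory list. For the excitatory list against reps 1-4, the odds ratio of miR-124-3p divided by that of the other small RNAs was 1.13 (95% interval 0.809 to 1.59). The same ratio was 1.08 (0.740 to 1.57) against reps 5-7, and 1.05 (0.884 to 1.25) for reps 5-7 against reps 1-4. No difference between lists that is particular to miR-124-3p was detectable at these numbers of peaks.

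Within a list, miR-124-3p had a lower coding share than the other small RNAs together in reps 1-4, by 4.57 points (Fisher's exact test, p adjusted over 77 small RNAs, adjusted p = 1.97e-32). Of those 77 small RNAs, 64.9% passed the same test and 32.5% passed it with a lower share, so the call itself was common. miR-124-3p stood 48th from the highest, with miR-376a-3p highest at 80.5% and miR-101a-3p lowest at 28.3%. The next most abundant, miR-9-5p, had a coding share of 58.7% and let-7c-5p one of 64.6%. In reps 5-7 the share of miR-124-3p was 3.33 points below the others (exact adjusted p = 0.228) and 13th of 19, where 26.3% of small RNAs passed and 15.8% passed with a lower share. In the excitatory list it was 1.38 points below the others (exact adjusted p = 0.797) and the third of 6. There 16.7% passed, which was miR-128-3p alone (78.7%, exact adjusted p = 0.0464), and 0% passed with a lower share.

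**Figure D2:**
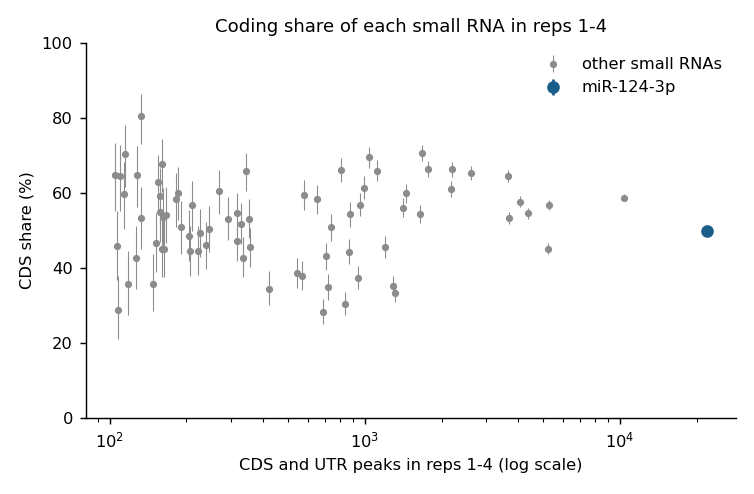
Coding share (percent) of each of the 77 small RNAs with at least 100 CDS and UTR peaks in reps 1-4, against its number of such peaks (log axis); bars are 95% Wilson intervals. miR-124-3p, the point farthest right, has 21946 peaks and a share of 49.9%, near the middle of a range from 28.3% to 80.5%.

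Most coding peaks of the short lists were found again in the long one. Of the 144 excitatory coding peaks, 141 (97.9%) overlapped a miR-124-3p peak of reps 1-4 on the same strand by at least 1 base, and 328 of the 367 reps 5-7 peaks (89.4%) did so. miR-124-3p peaks in 3′ UTRs gave 97.8% and 89.4%. Of the excitatory coding peaks 82 (56.9%, interval 48.8 to 64.8) were found in reps 5-7, against 63 of 93 3′ UTR peaks (67.7%, 57.7 to 76.4). That difference, -10.8 points, did not pass the test (Fisher's exact test, adjusted p = 0.310). Overlap was seldom exact: with a reciprocal overlap of 50%, 54.2% of excitatory coding peaks and 45.5% of reps 5-7 coding peaks were found in reps 1-4.

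The 3 excitatory coding peaks without a partner in reps 1-4 had low scores. Those in Abr (score 4), a regulator of small GTPases, and Phactr1 (score 4), a binder of actin and protein phosphatase 1, each lay 1 base from a coding peak of reps 1-4. The Parp11 peak (chr6:127474293-127474310, score 3) lay in a gene with 0 miR-124-3p coding peaks in reps 1-4. It did overlap 1 reps 1-4 peak of another small RNA, as the Phactr1 peak overlapped 2 and the Abr peak 0.

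Coding peaks of reps 1-4 with higher scores were found again more often. At a score of 3, 1 of 2659 (0.0376%) was found in reps 5-7 and 0 in the excitatory list. At scores of 11 to 25 the shares were 3.02% and 1.08%, at 26 to 100 they were 20.9% and 7.37%, and above 100 they were 69.7% (92 of 132, interval 61.4 to 76.9) and 44.7% (59 of 132, 36.5 to 53.2). 3′ UTR peaks also rose with score, to 72.9% and 37.3% above a score of 100, where the intervals of the 2 regions overlapped. For the excitatory list the regions parted at scores of 11 to 25. There 1.08% of coding peaks (19 of 1754, interval 0.695 to 1.69) and 0.124% of 3′ UTR peaks (2 of 1619, 0.0339 to 0.449) were found again. For reps 5-7 the same scores leaned the other way, with 3.02% of coding and 4.45% of 3′ UTR peaks found again. Differences within single score ranges were not tested.

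**Figure D3:**
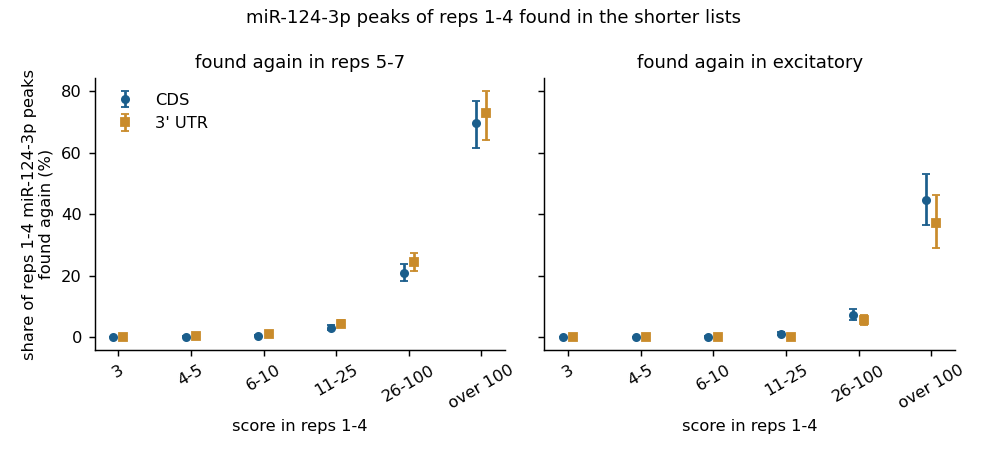
Share (percent) of reps 1-4 miR-124-3p peaks that overlap a miR-124-3p peak of reps 5-7 (left) or of the excitatory list (right), by score in reps 1-4, for coding peaks (circles) and 3′ UTR peaks (squares); bars are 95% Wilson intervals. Both regions stay under 5% up to a score of 25 and are highest above a score of 100.

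Of the 132 coding peaks with a reps 1-4 score above 100, on 110 genes, 47 were found in both short lists, 45 in reps 5-7 alone, 12 in the excitatory list alone and 28 in neither. The 62 excitatory coding peaks that reps 5-7 lacked had a median excitatory score of 3 and a median best score of 45 in reps 1-4. The 82 that reps 5-7 held had medians of 4.5 and 133. The highest excitatory score without a partner in reps 5-7 was that of Cmip (chr8:117454959-117454971, score 11), a gene named for a Maf-inducing protein. A reps 5-7 coding peak of Cmip, with a score of 7, began at 117454976, beside it.

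A total of 80 excitatory coding peaks (55.6%, interval 47.4 to 63.4), on 69 genes, overlapped a miR-124-3p coding peak in both forebrain lists. Their best reps 1-4 score had a median of 126 and was at least 18, where all coding peaks of reps 1-4 had a median of 5. Across these 80 sites, which share the miRNA and in part the library numbers, Spearman's rho of the excitatory score was 0.621 with reps 1-4 and 0.542 with reps 5-7, given as a description.

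The site with the highest score in each of the 3 lists lay in Camk2a, the alpha subunit of calcium/calmodulin-dependent protein kinase II and a main kinase of the postsynaptic density. The peak (chr18:60958578-60958591, plus strand) lay in the coding segment from 60958574 to 60958656 and scored 55 in the excitatory list, 39 in reps 5-7 and 830 in reps 1-4. A second Camk2a site (chr18:60951323-60951338) scored 18, 7 and 384. Camk2a is also the gene whose promoter drives the Cre that switches on the tag.

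Syt7, a calcium sensor of vesicle fusion, scored 16 in the excitatory list, 19 in reps 5-7 and 318 in reps 1-4 (chr19:10413378-10413396). Chst1, a carbohydrate sulfotransferase, scored 14, 7 and 93 (chr2:92614282-92614300). Egr1, an activity-regulated transcription factor, scored 13, 14 and 139 (chr18:34862626-34862642). The 2 Camk2a sites and Chst1 had a higher score in the excitatory list than in reps 5-7, and Syt7 and Egr1 a lower one.

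mt-Nd4l, a complex I subunit encoded in mitochondrial DNA, scored 13, 19 and 353 (chrM:9898-9914). Its reps 5-7 and reps 1-4 peaks both overlapped the excitatory peak but not each other. Hspa4l, a chaperone of the heat shock protein 110 class, scored 10, 10 and 240 (chr3:40770612-40770630). Pip5k1c, which makes the phosphoinositide used at presynaptic membranes, scored 10, 9 and 137 (chr10:81306365-81306381). Syp, the synaptic vesicle protein synaptophysin, scored 10, 11 and 219 (chrX:7641106-7641119). All 9 sites named had their highest score in reps 1-4, and scores are not scaled to depth.

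**Figure D4:**
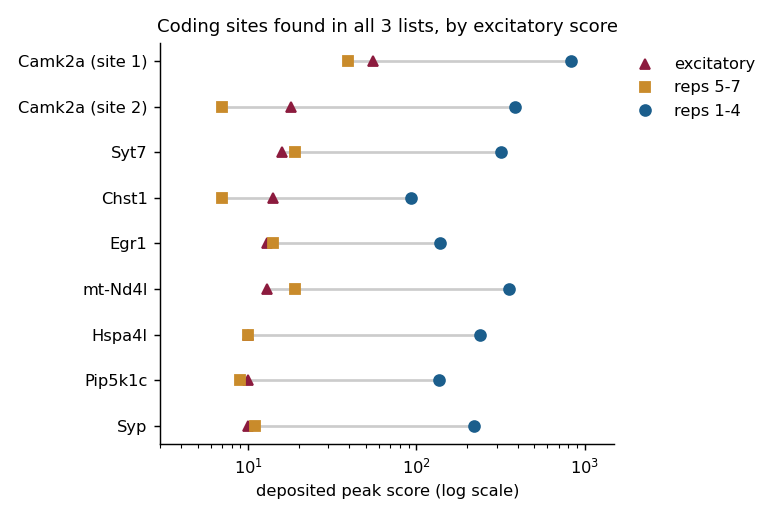
Deposited score (log axis) in the excitatory list (triangles), reps 5-7 (squares) and reps 1-4 (circles) of 9 of the 10 coding sites found in all 3 lists with the highest excitatory scores; for Hspa4l the excitatory and reps 5-7 points coincide at 10. The first Camk2a site is highest in every list, at 55, 39 and 830.

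After the first Camk2a site, the highest scores of reps 1-4 were those of Crebbp and Syt1. Crebbp, an acetyltransferase and transcriptional coactivator, scored 472 in reps 1-4 (chr16:4085739-4085741), 18 in reps 5-7 and 8 in the excitatory list. Syt1, the calcium sensor of fast transmitter release, had neighbouring peaks of 444 (chr10:108642379-108642381) and 441 (chr10:108642392-108642398), the second ending at the edge of its coding segment. Its reps 5-7 peak (chr10:108642375-108642375, score 27) lay beside them without overlap, and the excitatory list held 0 coding peaks and 1 3′ UTR peak of Syt1. Sepp1 (now Selenop), a selenium carrier, scored 21 in reps 5-7 (chr15:3277177-3277195), the third score of that list.

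By number of coding peaks, reps 1-4 was led by Map1a, a microtubule-associated protein, with 40 and Ank3, an ankyrin of the axon initial segment, with 37. Among those that followed were Map2, the dendritic microtubule protein (35), Camk2a (33), the spectrin Sptbn1 (32), Ank2 (29), Gm15800, which RefSeq lists as Hectd4 (27), mt-Nd5 (25) and the elongation factor Eef2 (23). Genes with like numbers of peaks could differ in score: the highest score was 16 among the 32 peaks of Sptbn1 and 830 among the 33 of Camk2a. Reps 5-7 was led by Camk2a (5), March6 (now Marchf6, a ubiquitin ligase), mt-Nd2, mt-Nd5 and Adgrl1 (4 each), and mt-Cytb, Syp, mt-Nd4 and mt-Nd1 had 3 each. In the excitatory list Camk2a had 5 and Egr1 3, and Map2, Arhgap5, Syp, Fbxl16, Cyfip2, Lrrn2 and Ppp3ca were among those with 2.

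Camk2a had 33 coding peaks in 17 coding segments of reps 1-4, with scores from 6 to 830 and a median of 22. It had 5 in reps 5-7 (scores 39, 11, 9, 7 and 5) and 5 in the excitatory list (55, 18, 7, 6 and 4), each in a segment of its own, and the same 5 segments in both. Camk2a held 1.99% of the summed score of coding peaks in reps 1-4, 3.64% in reps 5-7 and 12.4% in the excitatory list. Egr1 had 9 coding peaks in reps 1-4 (scores 3 to 139), 2 in reps 5-7 (14 and 5) and 3 in the excitatory list (13, 5 and 3).

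The share of each gene among miR-124-3p coding peaks was tested where the lists compared held at least 10 peaks of it together. Between the excitatory list and reps 1-4, 1.82% of 110 genes passed (2 genes, by the same exact test, adjusted over these genes). Camk2a took 3.47% of excitatory coding peaks and 0.301% of those of reps 1-4 (odds ratio 11.9, exact adjusted p = 0.0134). Its share in the other forebrain list was also above that of reps 1-4, without passing, as given below. Egr1 took 2.08% and 0.0821% (exact adjusted p = 0.0237), on 3 and 9 peaks. It reached the minimum of 10 only through its excitatory peaks, so its call had to be a high one and is given as a description. With at least 10 peaks asked of reps 1-4 alone, a setting chosen after the data were seen, 102 genes were tested and Camk2a passed (exact adjusted p = 0.0124). With genes of at least 5 peaks tested, 0 genes passed (Camk2a exact adjusted p = 0.0625, Egr1 0.111), and among peaks at or above the median score Camk2a passed and Egr1 did not (exact adjusted p = 0.123). The test takes neighbouring peaks of a gene as independent. It also compares lists of unlike size and was not run on lists of equal size. The Camk2a peaks above a score of 100 in reps 1-4 (830, 384, 287, 242 and 118) were all found in the excitatory list. Of all reps 1-4 coding peaks above that score, 44.7% were found there. The part of list size in the Camk2a difference was not tested.

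A further 7 genes, with 2 excitatory peaks each, had an unadjusted p under 0.05, among them Ppp3ca, Cyfip2, Syp, Atp2b2, March6 and Fbxl16 (exact adjusted p = 0.218 for each). Ppp3ca, with 8 peaks in reps 1-4, reached the minimum only through its excitatory peaks, so like Egr1 it could only come out high. Lower shares could not be seen at 144 peaks: Sptbn1, with 32 peaks in reps 1-4 and 0 excitatory, had an exact p of 1. Between the excitatory list and reps 5-7 Camk2a alone had enough peaks, and 0% passed (odds ratio 2.60, Fisher's exact p = 0.154). Between reps 5-7 and reps 1-4, 0% of 111 genes passed, with 12 at an unadjusted p under 0.05. Of these 12, Egr1, Nf1 and Psap (2 and 9 peaks each) reached the minimum only through their reps 5-7 peaks. They too could only come out high. There too a lower share could hardly be seen, as Map1a, with 40 and 0 peaks, had an exact p of 0.641. The smallest adjusted p values there were those of March6 and mt-Nd2 (0.128 each). Camk2a was also among the 12, with 1.36% of reps 5-7 and 0.301% of reps 1-4 coding peaks. Its odds ratio was 4.57 (Fisher's exact p = 0.00724, adjusted p = 0.201). A Camk2a share above that of reps 1-4 was thus not seen in the excitatory list alone.

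Messenger RNAs encoded in mitochondrial DNA carried 114 coding peaks in reps 1-4 (1.04%, interval 0.867 to 1.25), 22 in reps 5-7 (5.99%, 3.99 to 8.91) and 1 in the excitatory list (0.694%, 0.123 to 3.83), that of mt-Nd4l. In reps 1-4 they lay on all 13 mitochondrial coding genes, with 25 on mt-Nd5, 17 on mt-Co1, 15 on mt-Nd1 and 14 each on mt-Nd2 and mt-Nd4. The share of reps 5-7 was above that of reps 1-4 (odds ratio 6.07, Fisher's exact test, adjusted p = 1.2e-09) and above that of the excitatory list (exact adjusted p = 0.0113). When each longer set was reduced to its highest-scoring coding peaks until equal in number, reps 5-7 and reps 1-4 had 22 of 367 each. At 144 peaks reps 5-7 and reps 1-4 had 13 each and the excitatory list 1 (exact adjusted p = 0.00215 for both). These comparisons were chosen after the data were seen. In these bulk libraries, fewer cells of a type and less RNA per cell cannot be told apart. The excitatory list also differs from the forebrain lists in antibody, and the cause of these differences was not tested.

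Among the 6819 genes with any CDS or UTR peak of miR-124-3p in reps 1-4, 4646 (68.1%) had a coding peak. The same share was 47.2% of 654 genes in reps 5-7 and 59.3% of 216 genes in the excitatory list. Of the genes with a coding peak, 2378 (51.2%) also had a 3′ UTR peak in reps 1-4, 43 (13.9%) in reps 5-7 and 8 (6.25%) in the excitatory list. Lists of genes by function are described below by their counts beside 68.1%. Genes with more peaks have more chances of a coding one, and the median gene with a coding peak had 1 in reps 1-4.

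Among synaptic genes, 31 of 32 genes of the postsynaptic density with a miR-124-3p peak in reps 1-4 had a coding one, with 173 coding peaks in all and a median of 3 a gene. Camk2a and Ppp3ca, the calcineurin catalytic subunit (8 peaks in reps 1-4, 2 excitatory), were the 2 of 5 with a coding peak in the excitatory list, and in reps 5-7 it was 4 of 11 (36.4%), both below the shares over all genes. Of the presynaptic release genes 22 of 25 had a coding peak in reps 1-4, 9 of 12 in reps 5-7 and 2 of 4 in the excitatory list. Syp (12 in reps 1-4, 3 in reps 5-7, 2 excitatory) and Bsn, a scaffold of the active zone (22, 1 and 1), had one in every list.

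All 15 ion pump and transporter genes with a peak had a coding one in reps 1-4, as did 8 of 10 in reps 5-7 and 7 of 7 in the excitatory list, with a median of 6 a gene in reps 1-4. Atp2b2, a plasma membrane calcium pump, had 13, 1 and 2 coding peaks in reps 1-4, reps 5-7 and the excitatory list, and Atp2a2, the calcium pump of the endoplasmic reticulum, 15, 1 and 1.

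Cytoskeletal and transport genes were at similar shares in reps 1-4. Coding peaks were on 22 of 23 microtubule and neurofilament genes, 15 of 16 spectrin, ankyrin and actin genes, 16 of 19 motor genes and 18 of 19 endocytosis and trafficking genes. In reps 5-7 these counts were 5 of 9, 3 of 7, 1 of 2 and 1 of 2, and in the excitatory list 4 of 5, 4 of 6, 1 of 3 and 0 of 0. Map2 had 35, 2 and 2 coding peaks in reps 1-4, reps 5-7 and the excitatory list. Macf1, a crosslinker of actin and microtubules, had 21, 1 and 1, and its top peak scored 372, 17 and 5. Kif1a, a kinesin of synaptic vesicle precursors, had 14, 0 and 1. Cltc, the clathrin heavy chain, had 15 coding and 0 3′ UTR peaks in reps 1-4, and no trafficking gene had a CDS or UTR peak in the excitatory list.

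Of the metabolic genes, 22 of 23 had a coding peak in reps 1-4 and 5 of 5 in reps 5-7. Atp5a1, the alpha subunit of mitochondrial ATP synthase, was the only one with a CDS or UTR peak in the excitatory list, a coding one. Of the folding, translation and ubiquitin genes 19 of 21 had a coding peak, as did 6 of 8 in reps 5-7 and 4 of 6 in the excitatory list. Eef2 had 23, 2 and 1 coding peaks, and Huwe1, a ubiquitin ligase, 12, 0 and 1. Of the chromatin and transcription genes 24 of 27 did, but 2 of 7 (28.6%) in reps 5-7 and 1 of 2 in the excitatory list, with Crebbp (6, 1 and 1) in every list and the methyltransferase gene Kmt2a (14, 1 and 0) in the forebrain lists.

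Known targets of miR-124 had the lowest share of the 16 gene lists. All 22 with a peak in reps 1-4 had a 3′ UTR peak, and 6 (27.3%) had a coding one: Itgb1, an integrin subunit, and Cd164, a sialomucin, with 3 each, and Ptbp1, Ptbp2, Ctdsp2 and Snai2 with 1 each. In reps 5-7 none of the 7 with a peak, and in the excitatory list neither of those with a peak, had a coding one. Most of these genes are known through their 3′ UTR sites, so the list is not independent of the region.

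**Figure D5:**
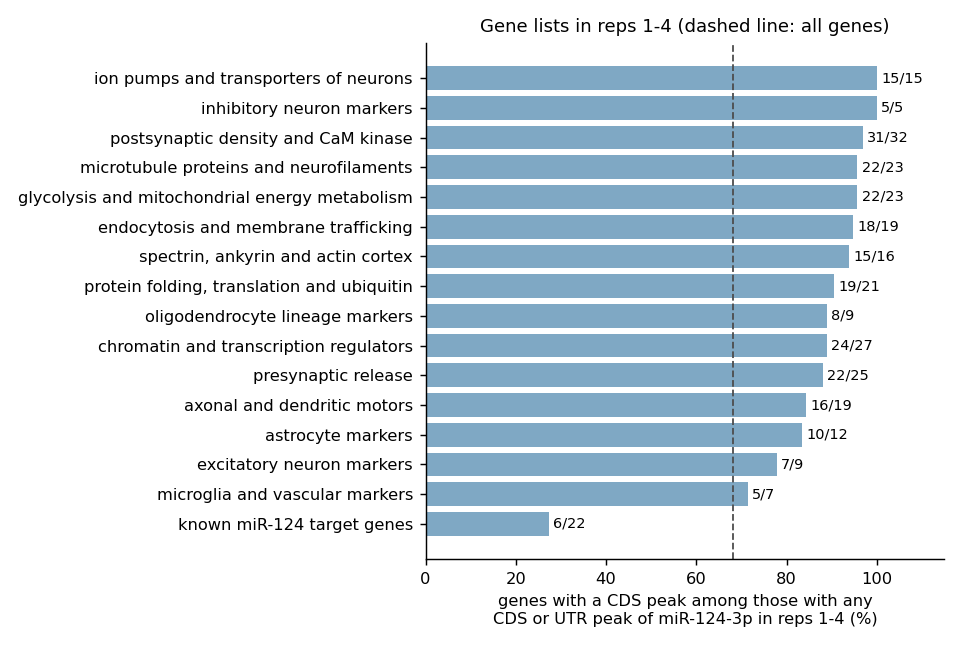
Share (percent) of genes with a coding peak among the genes of each list with any CDS or UTR peak of miR-124-3p in reps 1-4; the numbers beside the bars give the genes counted, and the dashed line marks all genes (68.1%). Known miR-124 target genes are at 27.3% and the other lists between 71.4% and 100%.

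Markers of cell types were counted to check the labels, over all listed markers for the short lists. In the excitatory list, Camk2a was the only 1 of 9 excitatory neuron markers with a coding peak. None of the 10 inhibitory neuron, 12 astrocyte or 11 microglia and vascular markers had one, and 1 of the 11 oligodendrocyte lineage markers did. In reps 5-7 the counts were the same. Few markers had any CDS or UTR peak in the excitatory list, 1 each of the excitatory, astrocyte and oligodendrocyte markers and 0 of the others, so the counts of 0 are a weak check. In reps 1-4 coding peaks were on 7 of 9 excitatory markers with a peak, on 5 of 5 inhibitory, 10 of 12 astrocyte, 8 of 9 oligodendrocyte and 5 of 7 microglia and vascular markers. The glial glutamate transporter gene Slc1a2 had 12 coding and 50 3′ UTR peaks there. The part of cells other than excitatory neurons in the excitatory list was not tested.

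miR-124-3p coding peaks often lay where other small RNAs had peaks in the long list. In reps 1-4, 31.4% of them (3441 of 10960, interval 30.5 to 32.3) overlapped a peak of another small RNA on the same strand, against 31.5% of 3′ UTR peaks (30.6 to 32.4; Fisher's exact test, adjusted p = 0.871). The shares were 6.27% and 6.94% in reps 5-7 (exact adjusted p = 0.871), and 2.08% (3 of 144) and 0% (0 of 93, which allows up to 3.23%) in the excitatory list (exact adjusted p = 0.845). With a reciprocal overlap of 50% the reps 1-4 shares were 14.1% for coding and 12.1% for 3′ UTR peaks, and the coding share was then the higher (exact adjusted p = 8.11e-05).

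The partners seen most often in reps 1-4 were miR-9-5p, with 602 coding peaks of miR-124-3p overlapped, let-7c-5p with 550, miR-128-3p with 466 and let-7a-5p with 463. These are also small RNAs with many coding peaks of their own, 6113, 2351, 2990 and 1706. A peak in Ank2 (chr3:127010956-127010982, score 40) overlapped peaks of 32 other small RNAs and one in Ttyh1 (chr7:4122534-4122551, score 53), a chloride channel family gene, those of 30. In the excitatory list the 3 shared places were a Cyfip2 peak with let-7c-5p and Camk2a peaks scoring 55 and 6, both with miR-127-3p.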

How the data were processed

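Chimeric small RNA and target reads came from 12 libraries, sequenced as paired reads of 150 bases with per-sample depths that the labels' protocols put between 61 and 138 (in units of 10 to the power 6 reads). The deposited peak lists give each peak a score computed by the authors, pooled over the libraries of a list, with at least 3 reads and 2 libraries per peak per the deposited calling summaries and mm10 per the submitters' processing notes. The sources used here name no aligner or peak caller. No column of per-sample values was left unused.

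From these lists, coding peaks were counted in Python 3.11.15 with pandas 2.3.3 and scipy 1.17.1. Shares were compared by a two-sided Fisher's exact test with p adjusted by Benjamini and Hochberg's method, threshold 0.05. The gene test was tried on simulated lists, the shorter of them longer than the short lists here. The comparison of coding shares was tried on simulated counts at the sizes of the excitatory list and reps 1-4. Comparisons of peaks found again or overlapping other small RNAs were not simulated. Small RNAs needed 100 CDS and UTR peaks in reps 1-4 and 20 in the other lists. Of 4651 member genes, 4471 matched RefSeq by symbol, 145 by synonym and 35 not at all. A planned search for seed matches in all peaks was not run, since no genome was used here.

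Named were the 10 genes with the most coding peaks and the 5 highest-scoring peaks per list, genes that passed a test, the first 10 sites found in all 3 lists and up to 4 genes per gene list. The others were named after their values were seen, and some items are not reported here. Members and lists were chosen with earlier results of these data known. Alternatives changed score minimum, list size, denominator, overlap, feature minimum and background.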

Additional observations from a re-analysis of the deposited data

How the results depend on the processing

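Of 114 values under another setting, over 26 results, 17 left out peaks over IgG peaks and equalled the reported value, since no coding peak overlaps one. Of the other 97, 79 kept their side of the threshold or, where there is no test, stayed within a set range of the reported value. Among those, 5 differences that did not pass turned sign: coding minus 3′ UTR peaks found again (excitatory in reps 1-4, -3.90, -0.653 and -1.25 points; reps 5-7 in reps 1-4, -0.0290) and overlap with other small RNAs in reps 5-7 (0.282). The coding share of excitatory against reps 1-4 lost its call with peaks at or above the median score (8.86 points), with reps 1-4 cut to equal number by score (2.98 points) and with its miR-124-3p peaks alone reduced, a setting added after seeing the data (7.02 points, exact adjusted p = 0.143). For reps 5-7 against reps 1-4 the call was lost with peaks at or above the median score (-3.48 points) and turned with all miR-124-3p peaks as denominator (20.9 points). The overlap with other small RNAs in reps 1-4 turned from -0.106 to 1.94 points with a reciprocal overlap of 50%. Genes that passed between excitatory and reps 1-4 were 2, and 0, 1, 1 and 1 with at least 5 peaks, at least 20 peaks, the median score and 10 peaks in reps 1-4 alone. The median score in reps 1-4 was 7 over the highest peak of each gene. For the mitochondrial share, with the longer list and with the longer set of peaks reduced (both added after seeing the data), reps 5-7 minus reps 1-4 went from 4.95 to -0.175 and 0 points, and excitatory minus reps 1-4 passed at -10.8 and -8.33 points. The cause was not tested. Leaving out the mitochondrial chromosome changed no call. No paired analysis was possible because the lists pool their libraries, and for the same reason no replicate could be left out. Counts of coding peaks limit what can be seen in the excitatory list most, with 144 peaks.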
